A study of Mus musculus with 3 samples.

Results

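The major histone gene cluster of the mouse lies on chromosome 13, in 2 blocks of genes set apart by a stretch of other genes. The intervals described here are those of a deposited list of potential FAIRE peaks whose midpoint lay between positions 21500001 and 24000000 of that chromosome (build mm9). They numbered 817 of the 348759 intervals of the list. Block 1 was taken as 21750001 to 22150000 and block 2 as 23500001 to 23900000, with the stretch between them from 22150001 to 23500000, bounds that rest on position alone and use no score. FAIRE-seq fixes cells with formaldehyde and sequences the DNA left free of crosslinked protein, which is rich in open regulatory DNA such as active promoters.

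The list comes from wild type mouse embryonic stem cells of a 129Sv-C57Bl/6 background. The series has 3 samples: genomic DNA input, FAIRE after 16 h in DMSO, the solvent control, and FAIRE after 16 h in 500 nM ICRF-193, which inhibits the catalytic activity of topoisomerase II. Both FAIRE titles name replicates 1 and 2 in a single sample. The list assigns no interval to a sample, so the values below describe the pooled list, no value describes an effect of the inhibitor, and there are no replicates and no tests. How many reads stand behind an interval is unknown.

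Replication-dependent histone genes encode the linker histone H1 and the core histones H2A, H2B, H3 and H4 that package newly made DNA. They have no introns, are transcribed mainly in S phase, and make mRNAs that end in a stem-loop in place of a poly(A) tail. Their cluster gathers at a nuclear body, the histone locus body, where the factor NPAT drives their transcription, and embryonic stem cells spend much of their short cell cycle in S phase. Many of the genes are near-identical copies, so reads from them can be hard to place. The treatment of such reads by the aligner is not stated in the labels.

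The order of genes was read from a RefSeq table of another assembly, GRCm38.p6. It was used for names and neighbours only, and no interval was assigned to a gene. The table lists 53 Hist1 genes in 2 runs, of which 52 are protein-coding and 1, H2ac14, is a pseudogene. The coding genes comprise 6 for H1, 12 for H2A, 14 for H2B, 9 for H3 and 11 for H4. An H2A and an H2B gene are neighbours in the order of coding histone genes 12 times. Many of these pairs are known to be transcribed divergently from a shared upstream region.

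The first run extends from H2bc13 to H2bc11 and holds 23 coding histone genes, of which 8 encode H2B, 7 H2A, 5 H4, 2 H3 and 1 H1. Within it also lie 31 tRNA genes, which RNA polymerase III transcribes, and the coding genes Zfp184, Pom121l2 and Prss16. The second run extends from H4c8 to H1f1 and holds 29 coding histone genes, of which 7 encode H3, 6 H4, 6 H2B, 5 H2A and 5 H1. It holds no tRNA gene and 1 other coding gene, Hfe, a regulator of iron uptake. Of the 147 genes between the runs, 75 are vomeronasal receptor genes of the Vmn1r family, with 36 coding genes and 39 pseudogenes. These encode pheromone receptors of the vomeronasal organ. A further 46 are tRNA genes, of which 45 come after the last Vmn1r gene and thus next to the second run. Abt1, Zfp322a, Btn1a1 and Btn2a2 lie in that part as well. Among the 20 genes before the first run are 8 olfactory receptor genes. After the second run come Trim38 and 4 anion transporter genes of the Slc17a family, then H2bc1 and H2ac1, a lone pair of histone genes known for expression in testis.

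To show the promoter DNA of these genes, 1 promoter per histone class is printed from RefSeq (GRCm38.p6). It is the first by symbol with an entry and is shown over the 250 bases before the annotated start. Capitals mark matches on either strand to the TATA box (TATAAA), the CCAAT box (CCAAT, or ATTGG on the other strand) and the octamer (ATTTGCAT, or ATGCAAAT), a motif known for binding Oct factors in H2B promoters. The 5 stretches are chr13:23763418-23763667 (+ strand) for H1f1, chr13:23750838-23751087 (+) for H2ac4, chr13:23746484-23746733 (+) for H2bc3, chr13:23752095-23752344 (+) for H3c2 and chr13:23761250-23761499 (- strand) for H4c1. These positions are of GRCm38.p6 and cannot be set against the mm9 positions of the intervals.
H1f1: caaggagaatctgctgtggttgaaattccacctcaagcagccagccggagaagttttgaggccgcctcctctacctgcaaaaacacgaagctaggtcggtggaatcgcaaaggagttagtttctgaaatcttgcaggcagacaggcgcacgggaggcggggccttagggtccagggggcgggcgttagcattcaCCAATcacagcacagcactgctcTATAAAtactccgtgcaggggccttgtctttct
H2ac4: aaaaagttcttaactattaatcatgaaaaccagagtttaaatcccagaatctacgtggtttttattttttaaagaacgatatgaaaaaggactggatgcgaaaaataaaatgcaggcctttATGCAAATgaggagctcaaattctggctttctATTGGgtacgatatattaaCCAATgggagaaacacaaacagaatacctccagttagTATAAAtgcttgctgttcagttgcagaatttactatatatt
H2bc3: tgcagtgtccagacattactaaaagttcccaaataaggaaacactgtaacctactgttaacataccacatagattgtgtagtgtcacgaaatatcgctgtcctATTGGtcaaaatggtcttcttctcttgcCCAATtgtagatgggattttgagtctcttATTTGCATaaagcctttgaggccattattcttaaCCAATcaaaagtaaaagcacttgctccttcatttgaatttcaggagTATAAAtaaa
H3c2: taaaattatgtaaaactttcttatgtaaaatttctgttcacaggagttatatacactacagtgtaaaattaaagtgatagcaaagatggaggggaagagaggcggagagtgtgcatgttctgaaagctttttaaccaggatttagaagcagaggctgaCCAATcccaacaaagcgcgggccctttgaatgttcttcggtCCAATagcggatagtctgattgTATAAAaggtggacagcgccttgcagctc
H4c1: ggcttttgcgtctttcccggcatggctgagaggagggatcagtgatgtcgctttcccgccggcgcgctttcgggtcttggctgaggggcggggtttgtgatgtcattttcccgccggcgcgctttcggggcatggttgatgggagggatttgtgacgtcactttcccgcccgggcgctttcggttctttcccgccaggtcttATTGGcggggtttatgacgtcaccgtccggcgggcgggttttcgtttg

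Motifs differed in frequency between the histone classes. Entries were found for 49 of the 52 coding histone genes, with 50 promoters of 300 bases (250 before and 50 after the start). CCAAT was present in 84% of them (42 of 50), against 37.4% of all 32851 promoters of the table. It was in each of the 6 H1, 12 H2A, 14 H2B and 7 H3 promoters and in 3 of the 11 H4 promoters (27.3%). TATAAA was present in 58% of the histone promoters (29 of 50), against 13.6% of all. The octamer was present in 9 of 50 (18%), against 1.74% of all, and each of the 9 belonged to an H2A (4) or H2B (5) gene. Of these 9 promoters 4 overlap another of them, which leaves 7 separate stretches. Among 33 promoters of the Vmn1r genes between the runs the octamer was present in 3 (9.09%), TATAAA in 9 (27.3%) and CCAAT in 12 (36.4%), so the octamer and TATAAA were above the share of all promoters there too. H4c1, which is printed above, has 1 CCAAT match and no match to TATAAA or the octamer. In TATAAA it differs from most of its class, as 8 of the 11 H4 promoters had that motif (72.7%). This was the largest share of any class, and the smallest was that of H2B, 6 of 14 (42.9%). A match of letters is a description and does not show that a factor binds.

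Listed intervals were concentrated in the 2 blocks. The bounds of the blocks were not matched to the gene runs. Whether the dense bins hold histone genes or other genes in or next to the runs, such as tRNA genes, was not tested. Block 1 held 332 intervals, or 830 per Mb, and block 2 held 302, or 755 per Mb. The stretch between them held 137, or 101 per Mb. The remaining 46 intervals lay in the outer flanks, 44 before block 1 and 2 after block 2. The blocks made up 32.0% of the length of the region and 77.6% of its intervals. Their density was 7.81 times that of the stretch between (95% exact binomial interval 6.48 to 9.46). This interval covers counting error only, and since neighbouring intervals can be fragments of a single open stretch it is too narrow. The fold was 4.26 with each block narrowed by 50 kb at both ends, which adds the inner end of each block to the stretch. It was 12.9 without the last 150 kb of the stretch.

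**Figure D1:**
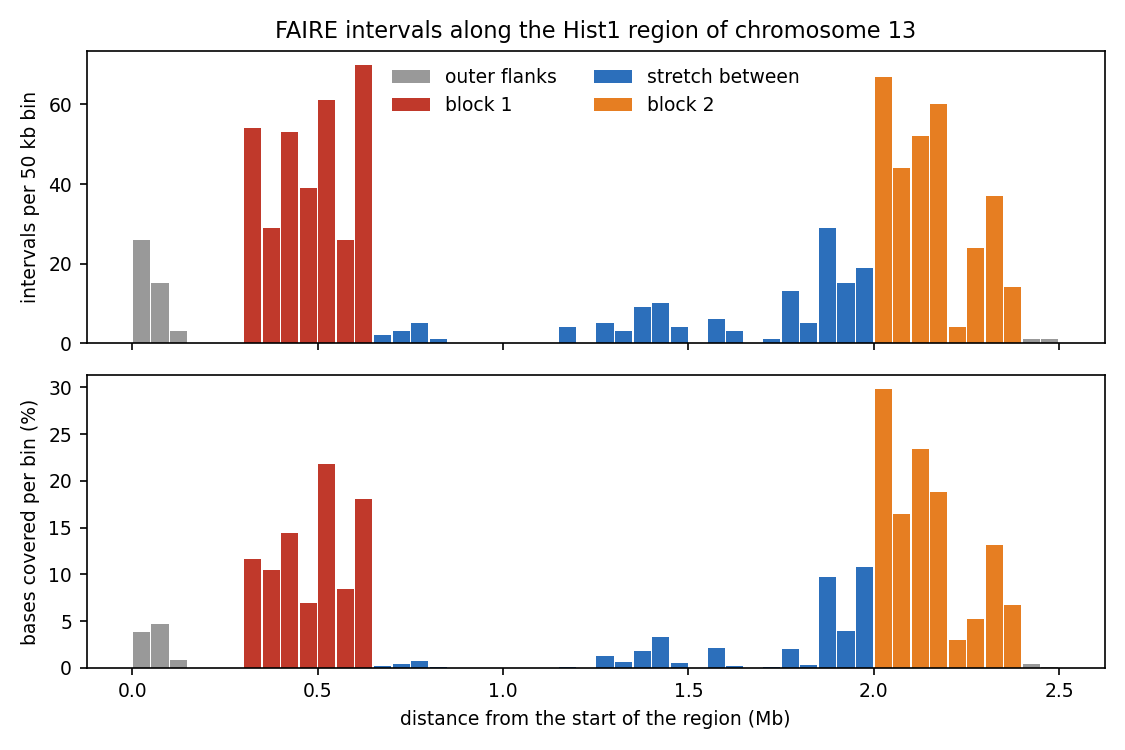
Intervals per 50 kb bin (top) and percent of the bases of each bin inside an interval (bottom), against distance from the start of the region in Mb, coloured by block, stretch and flank. The 2 blocks stand out from the stretch between, and the rise toward block 2 begins in the last 150 kb of the stretch.

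The blocks were also more covered than the stretch. Intervals covered 45.8 kb of block 1 (11.5% of its bases) and 58.3 kb of block 2 (14.6%), against 19.0 kb of the stretch (1.41%). The covered share was thus 9.24 times as high in the blocks. Block 1 had slightly more intervals than block 2, by 1.10 times (0.94 to 1.29), an interval that includes 1. Block 2 had wider ones, with a median width of 93.5 bp against 48.5 bp in block 1 and 41 bp over the other autosomal intervals. In block 2, 109 intervals (36.1%) were at least 200 bp wide, and in block 1, 81 (24.4%), against 20.1% of the whole list. The stretch was close to block 1 in width, with a median of 48.0 bp and 24.8% at least 200 bp wide. Very narrow intervals of at most 10 bp occurred at shares near that of the list, 34.9% in block 1 and 28.8% in block 2 against 30.8% of the list.

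High scores made up a larger share of intervals in the blocks than in the list. The score is the authors' deposited value for each interval on an unstated scale, and high-score intervals are those in the top 10% of the list. They make up 10.0% of the whole list by definition. In block 1, 49 of 332 intervals were high-score (14.8%, exact binomial interval 11.1 to 19.0%), and in block 2, 65 of 302 (21.52%, 17.02 to 26.6%). In the stretch between, 10 of 137 were (7.30%, 3.56 to 13.01%). The density of high-score intervals was 122 per Mb in block 1, 162 per Mb in block 2 and 7.41 per Mb in the stretch. Counted this way, the blocks stood 19.2 times above the stretch (10.1 to 41.2). Block 2 exceeded block 1 by 1.33 times (0.90 to 1.96), an interval that includes 1. The ranges in brackets cover counting error only. They are too narrow here as well, since neighbouring intervals can be fragments of a single open stretch. Of the top 1% by score, 22 intervals were in the blocks, or 3.47% of the block intervals against 0.968% of other autosomal intervals. With the top 5% as the limit, 12.8% of block intervals were high-score, against 4.96% of other autosomal intervals and 5.84% of those of the stretch. In the stretch 3 of 137 intervals (2.19%) were in the top 1%, so its share was below that of the list only at the widest of the 3 limits. Wide intervals tend to score high throughout the list, and the blocks hold many of them. Among intervals of at least 200 bp, 58.9% of those in the blocks were high-score. This compares with 49.3% of such intervals in the list and 29.4% in the stretch.

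**Figure D2:**
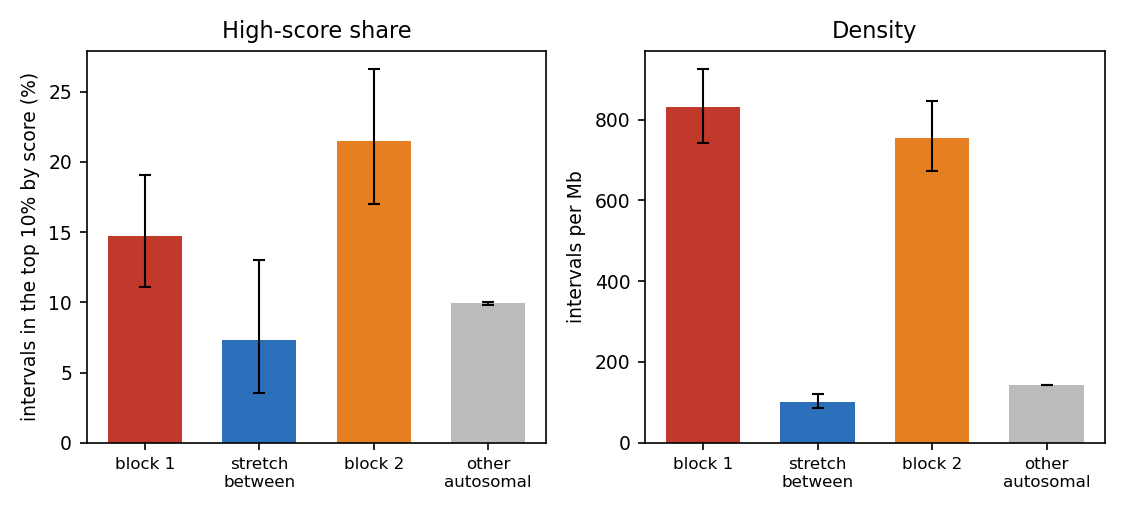
Percent of intervals in the top 10% of the list by score (left) and intervals per Mb (right) for block 1, the stretch between, block 2 and the rest of the autosomes; error bars are 95% exact binomial (left) and exact Poisson (right) intervals, which cover counting error only. Both blocks lie above the other autosomal sequence (142.6 per Mb and 9.93% high-score) in both panels, and the stretch lies below it in density.

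The median scores differed little in size. The median of block 2 was nonetheless above that of 76.9% of other autosomal 400 kb windows with an interval, and the median of block 1 above 50.2%. The median score was 0.0137 in block 1, 0.0144 in block 2 and 0.0139 in the stretch, against 0.0136 over the other autosomal intervals and a lowest score of 0.0129. Larger differences lay in the upper tail. The 90th percentile of the score was 0.0307 in block 1 and 0.0364 in block 2, against 0.0216 in the stretch and 0.0236 over the other autosomal intervals.

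Set among 6049 other autosomal windows of 400 kb, the length of a block, both blocks were near the top. The median window held 30 intervals, or 75 per Mb, against an average of 142.6 per Mb over the other autosomal sequence. Folds over the median window are thus larger than folds over that average would be. Block 1 held 11.1 times as many intervals as the median window and block 2 held 10.1 times as many. After joining intervals at most 500 bp apart these folds were 5.53 and 5.76, and for the top 10% by score 16.3 and 21.67. More intervals were found in 49 windows than in block 1, and in 67 than in block 2, so that 99.2% and 98.9% of windows held fewer. Windows with at least as many intervals as block 2 made up 1.11% of the total. By high-score intervals the blocks ranked higher still. The median window held 3 of them, 15 windows held more than the 49 of block 1, and 11 held more than the 65 of block 2. By covered bases, 38 windows exceeded block 1 and 25 exceeded block 2. These percentiles place the blocks in the list and are not tests.

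**Figure D3:**
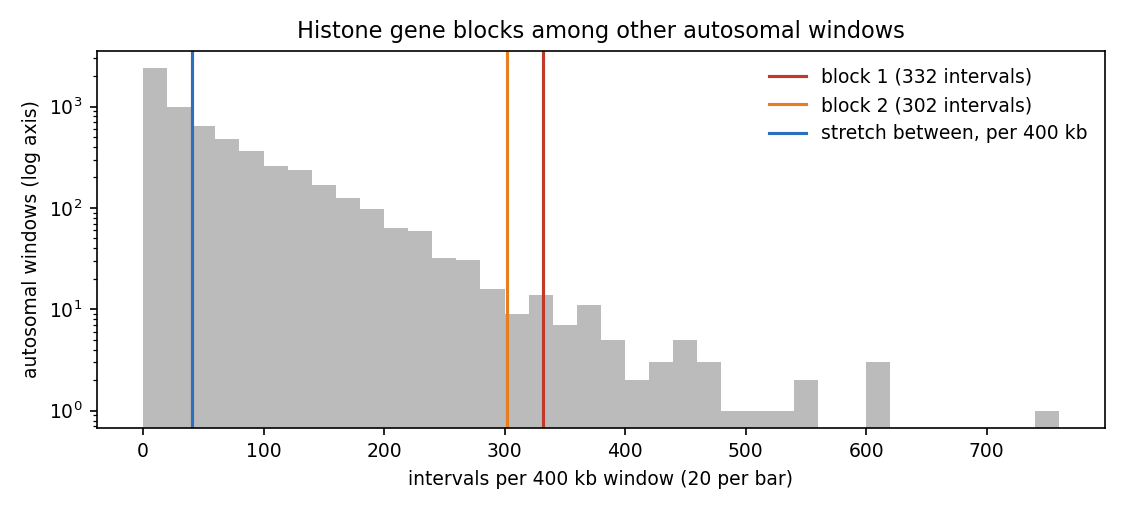
Number of other autosomal 400 kb windows (log axis) by their number of intervals, 20 per bar, with block 1 at 332, block 2 at 302 and the stretch between scaled to 400 kb. Both blocks lie in the sparse upper tail, beyond about 99% of windows, while the stretch lies close to the median of 30.

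The blocks held a larger share of high scores than most other dense windows. The 67 windows with at least 302 intervals lay on 16 chromosomes, 3 of them on chromosome 13. Their high-score share ranged from 1.06% to 25.4% with a median of 8.31%. It exceeded that of block 1 in 10 windows and that of block 2 in 3. Their covered share had a median of 11.2%, and 32 of the 67 were more covered than block 1 and 19 more than block 2. The count of the blocks was thus matched elsewhere, but in few windows together with as large a share of high scores as in block 2. Whether extra DNA copies or reads of repeated sequence contributed to any of these windows was not tested.

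By score, no single interval of the blocks ranked higher than 457 among autosomal intervals. The highest score in block 1 was 0.0634, for a 528 bp interval at 22134682 to 22135209, which was 4.64 times the list median and ranked 778 among 344785 autosomal intervals. The next in block 1 were at 22127275 to 22127980 (0.0621), 21878964 to 21879879 (0.0599), 21901150 to 21902447 (0.0584) and 21925298 to 21925857 (0.0571). All 5 lay between 528 and 1298 bp in width. The 2 highest lay 15.1 and 22.4 kb from the upper bound of the block, and the other 3 at least 129 kb from either bound. The highest score among 400 kb windows was below that of block 1 in 91.2% of windows and below that of block 2 in 94.6%, so by its strongest interval neither block stood out as it did by number.

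The highest score in block 2 was 0.0747, for an interval at 23502512 to 23505489. At 2978 bp it was also the widest interval of the blocks, and no interval listed on chromosome 13 was wider. It ranked 457 among autosomal intervals and 28 on chromosome 13. The next in block 2 were at 23837234 to 23837712 (0.0641), 23790228 to 23790696 (0.0575), 23665803 to 23666410 (0.0542) and 23653913 to 23654640 (0.0529). These were narrower, from 469 to 728 bp. Those at 23837234 and 23790228 stood alone, with no other interval within 500 bp.

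**Figure D4:**
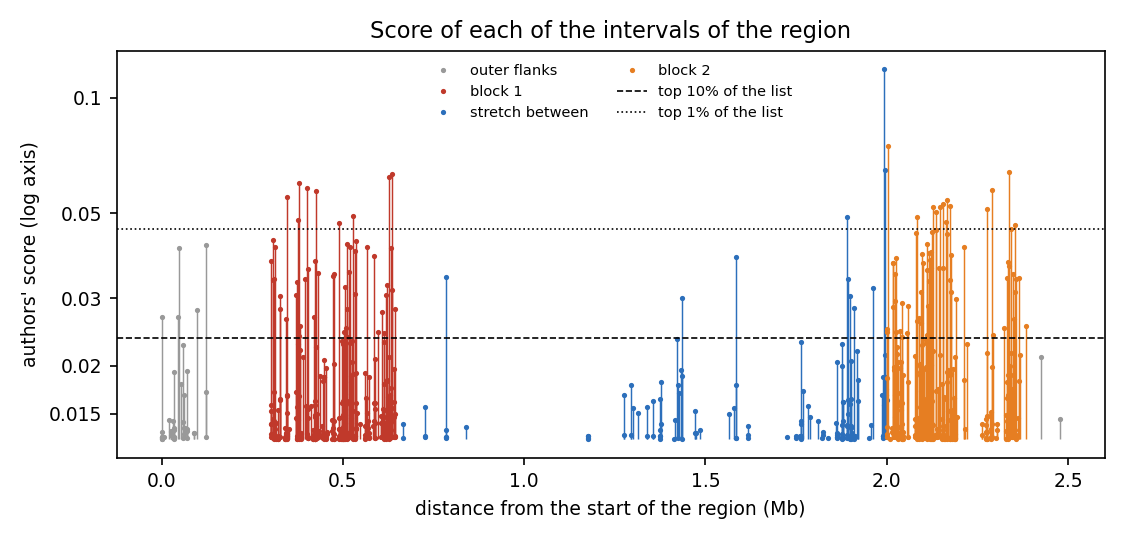
Authors' score of each of the 817 intervals (log axis) against distance from the start of the region in Mb, with the limits of the top 10% (dashed) and the top 1% (dotted) of the list. High scores recur throughout both blocks, and the single highest, 0.119, lies in the stretch directly before block 2.

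The strongest interval of the whole region lay just outside block 2. At 23492538 to 23494263 (1726 bp) it scored 0.119, or 8.70 times the list median, and ranked 236 among autosomal intervals and 16 on chromosome 13. Its midpoint was 6.60 kb before the bound of block 2. Its neighbour at 23494310 to 23494918 scored 0.0650 and was the second highest of the stretch. By position both belong to the stretch, and the higher of them scored above every interval of block 2. The next highest of the stretch, at 23390508 to 23391418, scored 0.0490 and lay 109 kb before the bound.

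Joining intervals at most 500 bp apart showed how fragmented the open stretches were. The 634 block intervals formed 192 joined regions, 94 in block 1 and 98 in block 2, and the 137 of the stretch formed 56. A joined region held on average 3.53 intervals in block 1 and 3.09 in block 2, against 2.43 in the stretch and 2.17 over the other autosomes. Its median length was 325 bp in block 1 and 353 bp in block 2, against 160 bp in the stretch. Of the joined regions of the blocks, 86 (44.8%) held a high-score interval, against 8 of 56 (14.3%) in the stretch and 19.6% in the whole list. A joined region of more intervals has more chances to hold a high-score one, which these shares do not allow for. Joined regions with a high-score interval followed each other at a median of 4.93 kb in block 1 and 4.25 kb in block 2, against 51.7 kb in the stretch and 23.4 kb over the autosomes. Hist1 genes are short and closely packed, but no interval was assigned to a gene. Whether the spacing of the joined regions follows that of the genes was not tested.

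The joined region with the most covered bases was at the start of block 2, at 23499881 to 23505489. It was 5609 bp long, held 9 intervals and was 88.4% covered. It crossed the lower bound of block 2, and the interval nearest before that bound (23499881 to 23500097, score 0.0163) and the nearest after it (23500100 to 23500107, score 0.0130) were both parts of it. The next largest of block 2 were at 23521808 to 23525273 (6 intervals, 79.3% covered) and 23607235 to 23610336 (6 intervals, 65.8%). In block 1 the largest, at 21922917 to 21926781, held 13 intervals over 3865 bp and was 59.0% covered. Those at 22125895 to 22129596 (13 intervals, 48.9% covered) and 22010545 to 22012960 (4 intervals, 73.9%) followed.

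Neither block was evenly filled. In block 1 the first 50 kb bin was empty and the other 7 bins held 26 to 70 intervals. The fullest of the region was the last bin of that block, 22100001 to 22150000, with 70. In block 2 the 4 bins of the first 200 kb held 44 to 67 intervals, and the 4 of the last 200 kb held 4 to 37. The first 200 kb had 223 intervals and 22.14% of its bases covered, the last 200 kb 79 intervals and 7.01% covered. The share of high-score intervals was the same in both, at 21.52% (48 of 223 and 17 of 79). The longest gap within a block was in this second part, 39.7 kb at 23722803 to 23762504. In block 1 it was 18.2 kb, at 21852361 to 21870608.

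The stretch between, which by gene order holds the Vmn1r genes, had a median of 3 intervals per 50 kb bin, the same as other autosomal bins. Of its 27 bins, 9 held no interval (33.3%), against 28.5% of other autosomal 50 kb bins, so empty bins were about as frequent as elsewhere. A single bin held at least 20 intervals, against 13 of the 16 block bins and 10.4% of other autosomal bins. Between autosomal neighbours there were 344766 gaps, with a median length of 332 bp. The longest gap of the region was 335 kb, at 22340457 to 22675168, and 327 of the autosomal gaps were longer. The next longest were 179 kb at 21623155 to 21801808, which takes in the first 51.8 kb of block 1, and 109 kb at 23117038 to 23225648. Whether reads could be aligned in these gaps was not tested.

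As a whole, the stretch had 1.35 times the interval density of the median 400 kb window. At 101 per Mb it was below the average of the other autosomal sequence, 142.6 per Mb. Its density stayed above the median window under 6 of 9 alternatives, at 1.24 to 2.52 times. Among these, shifting the windows or leaving out empty ones did not change its own count. The value of 2.52 added the inner ends of the blocks to the stretch. The direction turned under the other 3, at 0.98 times with joined regions, 0.99 times with high-score intervals alone and 0.82 times without its last 150 kb. It was 1.02 times the median of windows of its own length of 1350 kb. Its last 150 kb, next to block 2, held 63 of its 137 intervals, 7 of its 10 high-score intervals and all 3 of those in the top 1%. Without them the remaining 1200 kb held 74 intervals, or 61.7 per Mb, and 3 of the 74 were high-score (4.05%). This limit of 150 kb was chosen after the bins had been seen.

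At each of the 4 bounds of the blocks, more intervals lay in the 100 kb inside than in the 100 kb outside. In the 100 kb before and after the upper bound of block 1, 96 and 5 intervals were found, and 12 and 0 of them were high-score. At the upper bound of block 2 the counts were 51 and 2, with 13 and 0 high-score. Around the lower bound of block 1 they were 0 and 54, although the first interval inside (21801809 to 21802120, score 0.0376) lay 52.0 kb past the bound and the last outside (21622866 to 21623154, score 0.0415) 127 kb before it. At the lower bound of block 2 the step was smaller in proportion, from 34 to 111 intervals and from 4 to 23 high-score ones. The 2 strongest intervals of the stretch lay just before that bound.

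The flank before block 1 held 44 intervals, or 176 per Mb, which is 2.35 times the median 400 kb window and more than in the stretch. They were confined to its first 150 kb, the highest at 21622866 to 21623154 (0.0415) and 21548173 to 21548603 (0.0407), and 5 of them were high-score (11.4%). The flank after block 2, the 100 kb up to 24000000, held 2 intervals, at 23924965 to 23925179 (score 0.0211) and 23977589 to 23977631 (0.0146), neither of them high-score. Beyond the region, the 500 kb before it held 274 intervals per Mb and the 500 kb after it 86 per Mb. Both are far below the blocks.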

How the data were processed

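The members and gene lists were chosen with earlier results of these data known. The only file of values analysed was 1 list of intervals for the series, with 5 columns and no header. Per the labels, the submitters' processing notes name Bowtie and the build mm9. F-Seq, named only in the title of the list, reports stretches where smoothed read density passes a threshold. Versions, settings, filters, any use of the input and the samples pooled are not stated. The fifth column holds the deposited score of each interval, of unknown scale, used only to rank and describe intervals within the list. Starts count from 0 in the list and are printed counted from 1. The planned side-by-side values of DMSO and ICRF-193 were not computed, since no interval carries a sample.

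Intervals were assigned to segments by midpoint and summarised with Python 3.11.15, numpy 2.4.6, pandas 2.3.3 and scipy 1.17.1, and drawn with matplotlib 3.10.9. Autosomal windows of 400 kb ran from the first to the last interval of each chromosome, leaving out those overlapping the region. Folds and shares have 95% exact binomial intervals and densities exact Poisson intervals, for counting error only. The procedures were tested on simulated intervals of equal width with random positions, random scores and a set excess in the blocks. These were not clustered into fragments as the listed intervals are, so the counting intervals were not checked under clustering. No filter was applied, and all 817 are counted. Named intervals were the 5 highest-scoring and 2 widest of each block, the 3 highest of the stretch, the 2 highest of each outer flank, the 3 largest joined regions of each block, the 3 longest gaps, the fullest and emptiest bins, and those next to each block bound. Gene order and promoters came from RefSeq tables of GRCm38.p6, and no coordinate was converted. A Hist1 symbol or synonym defined a histone gene. Alternatives were stricter scores, joining, a minimum width, other block bounds and other windows. Leaving out the last 150 kb of the stretch was chosen after seeing the data.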

Additional observations from a re-analysis of the deposited data

How the results depend on the processing

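Of 79 alternative values for 11 results, 37 stayed within the counting interval of the reported value (or within 1.5 times, for counts and covered bases), 39 moved beyond it, and 3 changed direction. The 3 were all of the density of the stretch between relative to the median window, 1.35 as reported: 0.988 in the top 10% by score, 0.976 after joining and 0.822 without its last 150 kb. The blocks exceeded the stretch and the median window under every alternative run. For the top 10% by score, the fold of blocks over stretch was 19.2, the folds of blocks 1 and 2 over the median window 16.3 and 21.67, their window percentiles 99.7 and 99.8, the numbers in blocks and stretch 114 and 10, and the blocks 7.59% covered. At or above the median score, the numbers were 352 and 70 and the percentile of block 2 was 99.3. After joining within 500 bp, these were 5.79 for blocks over stretch, 5.53 and 5.76 over the median window, percentiles of 97.8 and 98.3, numbers of 192 and 56, and high-score shares of 44.8% and 14.3%. For intervals of at least 200 bp, they were 13.5 and 18.2 over the median window (1.68 for the stretch), percentiles of 99.4 and 99.8, numbers of 190 and 34, and high-score shares of 58.9% and 29.4%, against 49.3% of all such intervals of the list. With the blocks narrowed by 50 kb at each end, the blocks exceeded the stretch 4.26 times. The stretch then held 274 intervals and its density was 2.52 times the median window, because the inner ends of the blocks count with it. With the blocks widened by 50 kb, blocks 1 and 2 were at 8.91 and 8.59 times the median window and percentiles of 98.4 and 98.1. With high scores defined as the top 5%, the blocks had 12.8%, against 4.96% of other autosomal intervals. The stretch then had 5.84%, above that share, while at the top 10% it had 7.30% against 9.93% of other autosomal intervals. Without the last 150 kb of the stretch, an alternative chosen after seeing the data, the fold was 12.9 and the stretch held 74 intervals. Filters and joining change the counts by construction. Why they moved the folds was not tested. No paired analysis was possible because intervals carry no sample, and for the same reason leaving out a replicate was impossible. With the depth unknown, an unlisted stretch is not shown to be closed.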
